A study of Mus musculus with 24 samples.

Results

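Epiblast-like cells (EpiLCs) are mouse pluripotent cells induced in culture from embryonic stem cells (ESCs), and they were compared here with their parent ESCs after the first day of induction. The comparison took 4 of the series' 24 arrays, 2 from ESCs and 2 from day 1 EpiLCs, and covered all 14934 genes tested. ESCs were kept in 2i+LIF, a medium with a pair of kinase inhibitors and leukaemia inhibitory factor (LIF), with no feeder cells. The labels give C57BL/6 as the strain of both groups, name no transgene or other treatment, and give neither the EpiLC medium nor the number of cell lines. Biotinylated cRNA was made from total RNA without PCR amplification and was hybridised to Affymetrix mouse arrays. The members of a group are called biological replicates, but nothing says that they were separate cultures. The p-values and standard errors measure only the spread within the 6 groups of all 12 unamplified arrays, not that of these 4 arrays alone.

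In the 2i medium, one inhibitor blocks MEK, the kinase that activates ERK below FGF receptors, and the other blocks GSK3, which otherwise keeps beta-catenin low and WNT target genes off. LIF acts through its receptor, JAK kinases and the transcription factor STAT3. Together they hold ESCs in the naive state of the epiblast before implantation, and EpiLC induction, which generally uses activin and basic FGF in their place, moves the cells toward the epiblast after implantation, a state that is competent to form germ cells.

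Values are intensities on the linear scale of the deposited table, whose lowest value is 1. The median intensity of the 4 arrays lay between 42.9 and 44.0, and their log2 medians spanned 0.04. The ratio of 5′ to 3′ probe sets lay between 0.808 and 0.874 for Actb and between 1.15 and 1.19 for Gapdh. Replicates correlated across genes with r of 0.991 in ESCs and 0.989 in day 1 EpiLCs. The root mean square log2 difference was 0.83 ± 0.005 (SD) over the 4 pairs of an ESC and a day 1 array, against 0.31 between the ESC arrays and 0.33 between the day 1 arrays. Genes were tested above a filter level of 28.1, and where the lower group lay at or under it, the fold is a lower bound against that level, written "at least". A gene was called at a Benjamini-Hochberg adjusted p under 0.05 in limma and a log2 difference of at least 1 in size, a fold of 2. Log2 differences are day 1 EpiLCs minus ESCs, with n = 2 arrays per group. They carry the standard error (SE) from the fit of all 12 unamplified arrays.

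One day of induction moved the RNA of many genes, in both directions alike. Of the 14934 genes tested, 1797 (12%) were called. Day 1 EpiLCs had higher levels of 844 (5.65%) and lower levels of 953 (6.38%), and the median difference of all genes was -0.03. A fold over 4, measured or as a lower bound, was passed by 145 called genes that were higher and 185 that were lower, and a fold over 16 by 13 and 16. An unadjusted p under 0.05 was found for 46.9% of all genes tested, and 53.4% lay below 0. In 283 of the higher genes the ESC mean was at or under the filter level, and in 203 of the lower genes the day 1 mean was. Another 155 called genes had both means under it, so they have no fold. The arrays of the groups did not overlap for any of the 1797 called genes, and among all genes tested they did not overlap for 33.3% in the higher and 38.9% in the lower direction, 72.2% in all.

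**Figure D1:**
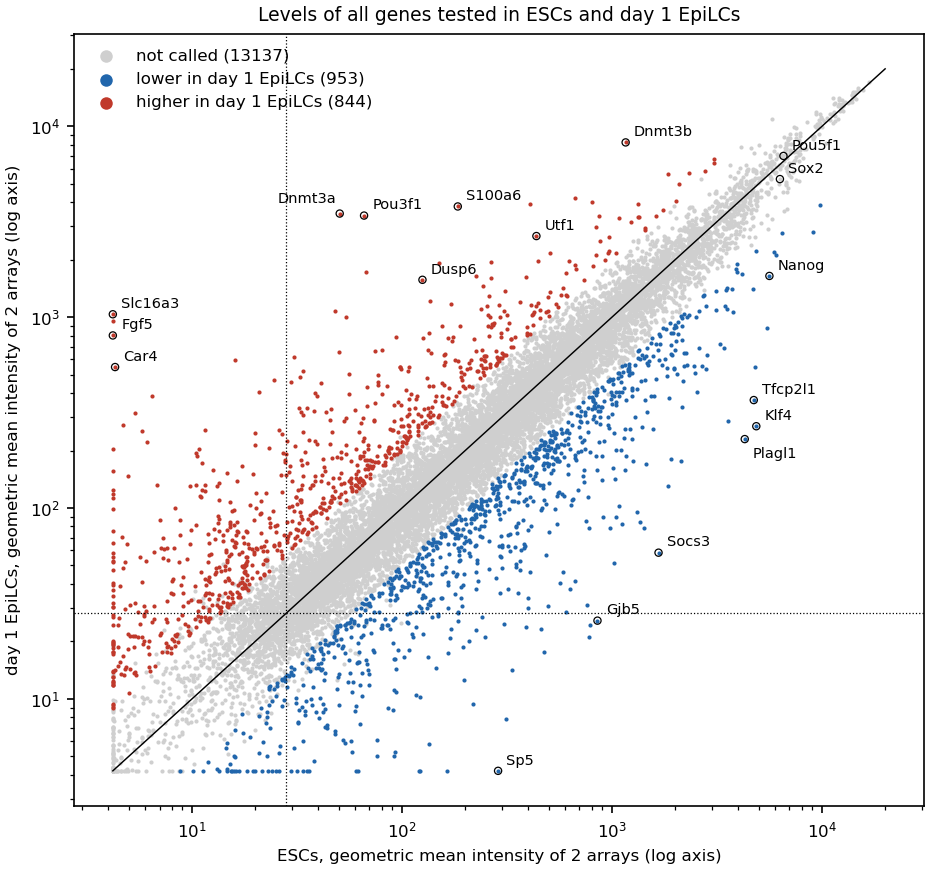
Geometric mean intensity of 2 ESC arrays (horizontal, log axis) and 2 day 1 EpiLC arrays (vertical, log axis) for 14934 genes; red and blue points are the 844 genes called higher and the 953 called lower, dotted lines mark the filter level of 28.1 and the solid line marks equal levels. Values under 4.2 were raised to it, which makes the lines of points at the lower edges. Dnmt3a, Pou3f1 and Fgf5 lie far above the line of equal levels, Socs3, Klf4 and Sp5 far below it, and Pou5f1 and Sox2 lie close to it.

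The largest increases with a measured level on both sides were those of a DNA methyltransferase and a POU factor of the epiblast. Dnmt3a, which methylates DNA anew, read 48.4 and 52.7 in ESCs and 3462 and 3517 in day 1 EpiLCs, a 69.1-fold rise (6.11 ± 0.13, adjusted p = 2.27e-10). Pou3f1, also known as Oct6, read 68.9 and 63.2 in ESCs and 3442 and 3371 in day 1 EpiLCs, a 51.6-fold rise (5.69 ± 0.09, adjusted p = 1.22e-10). The 2 arrays of each group lay close together for both genes and far from the other group. Next came Pim2, a serine/threonine kinase that promotes survival, with 71.2 and 64 in ESCs and 1669 and 1768 in day 1 EpiLCs (4.67 ± 0.08, adjusted p = 1.31e-10). Enpp3, an enzyme that cleaves nucleotides outside the cell, read 50.8 and 45.1 in ESCs and 1030.3 and 1113 in day 1 EpiLCs (4.48 ± 0.08, adjusted p = 1.31e-10), although its other probe sets ranged from 0.28 to 5.57. S100a6, a calcium-binding protein, read 166 and 204 in ESCs and 3756 and 3848 in day 1 EpiLCs (4.37 ± 0.15, adjusted p = 8.7e-09). All of these rose from levels near the median of the array, or a few times above it, to some of the stronger signals on it.

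The rest of the 20 largest measured increases were spread over many functions. They were the potassium channel Kcnk1 (4.34), the bHLH factor Tcf15 (4.22), the selenium transport protein Selenop (3.95), Foxp1 (3.95), the splicing factor Esrp1 (3.89), Emb (3.67), Dusp6 (3.65), the junction protein Cgnl1 (3.46), the zinc finger factor Zfp423 (3.38), Mael (3.37), Ap1s3 (3.29), the retinoic acid receptor Rarg (3.26), Dnmt3l (3.26), Neurod1 (3.24) and the sialomucin Podxl (3.19), each as a log2 difference. The other probe sets of Cgnl1 ranged from only 0.15 to 1.31, and another probe set of Podxl stood at 0.97. Other genes started at or under the filter level. Slc16a3, a transporter that carries lactate out of cells, was at 1 on both ESC arrays and read 1009 and 1062 in day 1 EpiLCs, a rise of at least 36.9-fold (adjusted p = 5.08e-08). Fgf5, the FGF ligand that marks the epiblast after implantation, was at 1 on both ESC arrays and read 810.1 and 794 in day 1 EpiLCs, at least 28.6-fold higher (adjusted p = 1.84e-10). Aire, best known as the autoimmune regulator of the thymus, went from 18.9 and 13.4 to 574 and 616 (at least 21.2-fold), and the carbonic anhydrase Car4 from 4.41 and 2.31 to 533 and 563 (at least 19.5-fold). Smaller bounds were found for the adaptor Dok2 (16.7-fold), Crmp1 (14.4-fold), the stress sensor Gadd45g (13.8-fold), Slc35d3 (11.3-fold), the transcription factor Wt1 (9.68-fold) and Igsf9 (9.17-fold), each of them a lower limit. These genes were thus at or near background in ESCs and clearly measured in day 1 EpiLCs.

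The largest decrease with a measured level on both sides was that of Socs3, the feedback inhibitor of LIF signalling. It read 1640.1 and 1693 in ESCs and 58.9 and 57.7 in day 1 EpiLCs, a 28.6-fold fall (-4.84 ± 0.21, adjusted p = 4.21e-08). Frmd4b, a FERM domain protein, read 790.3 and 727 in ESCs and 27.5 and 35.3 in day 1 EpiLCs (-4.61 ± 0.32, adjusted p = 1.05e-06), and its other probe sets ranged from -4.54 to -0.60. Ppp1r14d, an inhibitor of protein phosphatase 1, read 575 and 629 in ESCs and 31.7 and 25.5 in day 1 EpiLCs (-4.40 ± 0.31, adjusted p = 1.25e-06). For both of the last, the day 1 arrays sat near the filter level. Mitf, a transcription factor of pigment cells and lysosomes, read 1412 and 1436 in ESCs and 80.7 and 76.8 in day 1 EpiLCs (-4.18 ± 0.26, adjusted p = 4.67e-07). Gpnmb, a membrane glycoprotein that is a known target of Mitf in melanocytes, read 619.9 and 636 in ESCs and 36.1 and 39.2 in day 1 EpiLCs (-4.06 ± 0.20, adjusted p = 1.07e-07). They lay 18.1-fold and 16.7-fold lower on day 1, with no overlap between the groups, as for every called gene.

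The other genes among the 20 largest measured decreases included channels, transporters and membrane proteins. The log2 difference was -4.01 for the water and glycerol channel Aqp3, -3.80 for Emp2, -3.74 for the transporter Slc16a9 and -3.64 for the vesicle traffic protein Rab11fip5. It was -4.02 for the protease inhibitor Serpinb6c, -3.79 for S100a13, -3.60 for the epoxide hydrolase Ephx2 and -3.57 for the laminin chain Lama1. Plagl1, Klf4, Tfap2c, Tbx3, Ntn1, Tfcp2l1 and Jam2 complete these 20 and are described with their groups. Several genes fell to or under the filter level. Gjb5, a gap junction connexin, went from 852 and 854 to 19.96 and 33.1, at least 30.4-fold lower (adjusted p = 2.27e-07). The zinc transporter Slc30a2 went from 787 and 760.0 to 18.4 and 24.2, at least 27.5-fold lower (adjusted p = 1.02e-07). Bounds between 8.86-fold and 16.9-fold were found for Ly6g6e, Lrrc31, Smarcd3, Slit2, Nkx1-2, Zadh2, Sp5 and the transporter Slc6a7. Another probe set stood at only -0.49 for Nkx1-2 and -0.52 for Slit2.

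Across 40 lists of genes with a shared role, the share of called members ran from 0 to 86.4%, against 12% of all genes tested. The lists hold 726 distinct genes, 677 of them with a probe set of their own on the array. They were chosen with earlier results of these data known, so a high share is no independent support. Called members of the naive pluripotency, LIF pathway and WNT target lists were mostly or all lower. Those of the postimplantation, ERK, actin and later germ cell lists were mostly or all higher. No member was called in the Polycomb, respiratory chain, apoptosis, folate or 2-cell-like lists.

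**Figure D2:**
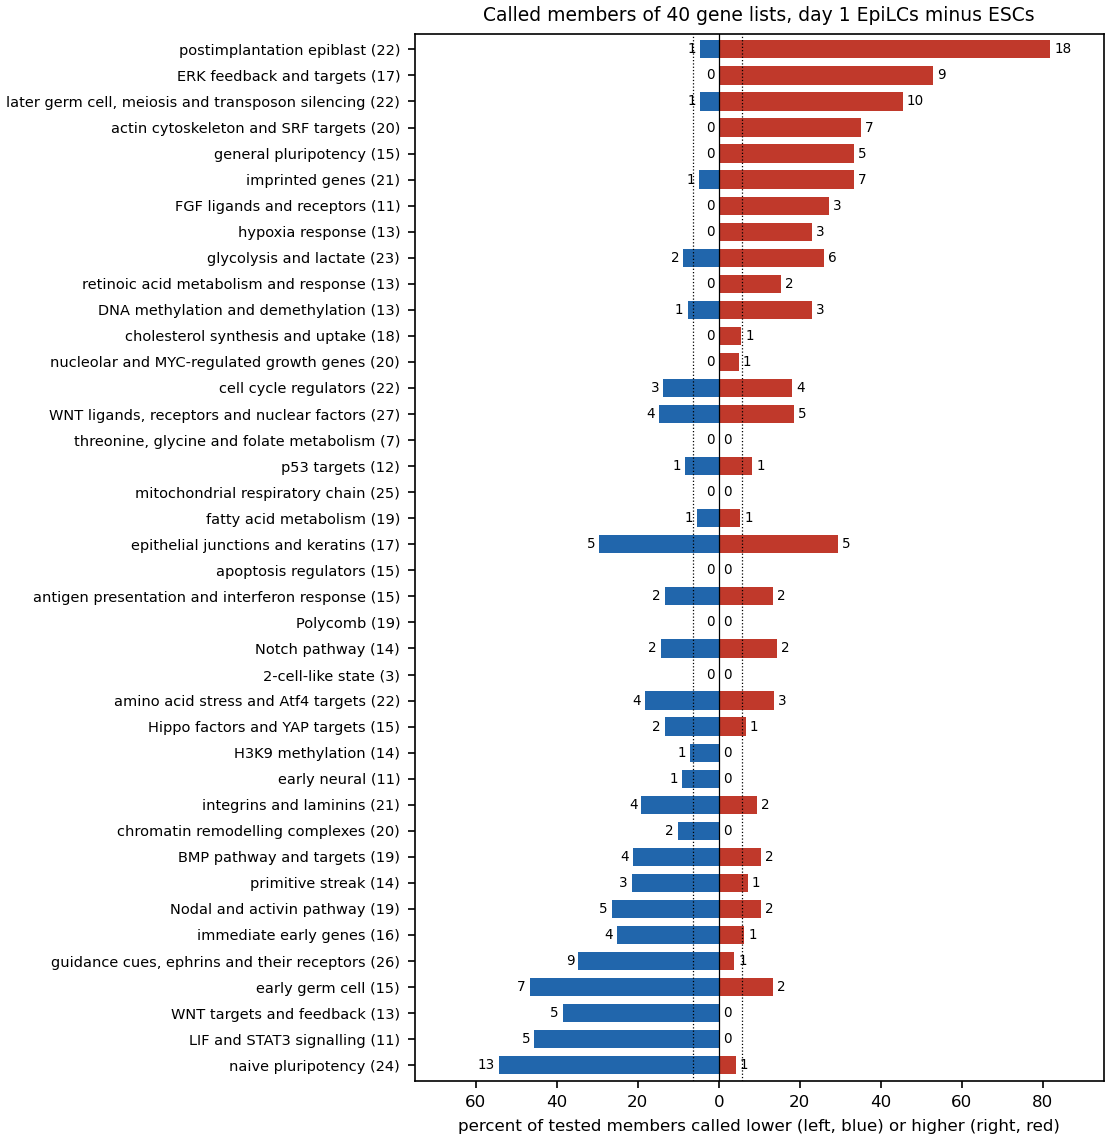
Percent of the tested members of each of 40 gene lists called lower (blue, to the left) or higher (red, to the right) in day 1 EpiLCs, with the number of called members beside each bar and the number tested in parentheses. Dotted lines mark the shares of all genes tested, 6.38% lower and 5.65% higher. The postimplantation epiblast list has the longest red bar, 18 of 22, and the naive pluripotency list the longest blue one, 13 of 24. These lists were chosen with earlier results of these data known.

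Many genes of naive pluripotency were lower after the first day, while the core factors were not called. Of 24 naive genes tested, 13 were called lower and 1, Gbx2, higher, and the list's median was -1.54 (all genes -0.03). Klf4, a Krüppel-like factor of the naive network, read 4899.8 and 4838 in ESCs and 287 and 250.5 in day 1 EpiLCs (-4.18 ± 0.24, adjusted p = 2.97e-07). Tbx3, a T-box factor that supports self-renewal, read 1764 and 1951 in ESCs and 125 and 136 in day 1 EpiLCs (-3.83 ± 0.22, adjusted p = 2.47e-07). Tfcp2l1, a target of STAT3 in ESCs, read 4731 and 4741 in ESCs and 366 and 369.8 in day 1 EpiLCs (-3.69 ± 0.08, adjusted p = 2.27e-10). Each fell more than 10-fold. For Tfcp2l1 another probe set went the other way, by 1.78, and the mean of its probe sets did not pass (-0.62, adjusted p = 0.433). The other probe sets of Tbx3 ranged from -4.32 to -0.48. The adhesion protein Jam2 fell by 3.63 on the log2 scale, the nuclear receptor Nr5a2 by 3.10, the PR domain factor Prdm14 by 2.74 and the kinase cofactor Tcl1 by 2.68. Pramel6 went from 129 and 138 to 4.07 and 7.94, at least 4.76-fold lower.

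The other naive regulators that were called kept a strong signal. Klf2 read 3286 and 3225 in ESCs and 719 and 732 in day 1 EpiLCs (-2.17 ± 0.09, adjusted p = 3.18e-08). Nanog, a homeobox factor of the pluripotent network, read 5686 and 5557 in ESCs and 1699 and 1591 in day 1 EpiLCs (-1.77 ± 0.10, adjusted p = 1.96e-07). Esrrb, an orphan nuclear receptor, read 2079 and 2334 in ESCs and 619 and 688 in day 1 EpiLCs (-1.76 ± 0.17, adjusted p = 1.4e-05). Klf5 fell by 1.92 and Fbxo15 by 1.33, and the mean of the probe sets of Klf5 was just short of the threshold (-0.99). Other naive genes were not called. The ESC marker Zfp42, also known as Rex1, went from 2158 and 2169.7 to 1611 and 1588 (-0.44 ± 0.11, adjusted p = 0.00898), short of the size threshold. Dppa3 (-0.64 ± 0.29, adjusted p = 0.109), Dppa5a (0.09 ± 0.05, adjusted p = 0.173) and the DNA dioxygenase Tet2 (-0.98 ± 0.14, adjusted p = 0.000223) were not called. Nr0b1, an orphan receptor, and Fgf4 lay above their ESC level without being called. Nr0b1 read 1999.6 and 1953 in ESCs and 3781 and 3835 in day 1 EpiLCs (0.95 ± 0.41, adjusted p = 0.0918). Fgf4, the main FGF ligand of ESCs, read 1419 and 1509 in ESCs and 2395 and 2733 in day 1 EpiLCs (0.81 ± 0.33, adjusted p = 0.0748). Gbx2, a homeobox gene that can hold ESCs naive when LIF is absent, rose from 59.4 and 68.3 to 274 and 286 (2.14 ± 0.27, adjusted p = 8.8e-05).

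Among 15 general pluripotency genes, 5 were called higher and 0 lower, with a median of 0.55. Pou5f1, the Oct4 gene, read 6611 and 6504 in ESCs and 6948 and 7041 in day 1 EpiLCs (0.09 ± 0.07, adjusted p = 0.364). Sox2, its partner on DNA, read 6223 and 6395 in ESCs and 5222 and 5359 in day 1 EpiLCs (-0.25 ± 0.04, adjusted p = 0.00062). Sall4 read 2302 and 2395 in ESCs and 2609 and 2685 in day 1 EpiLCs (0.17 ± 0.06, adjusted p = 0.0364). All 3 kept most of their ESC level, and none was called. Utf1, a chromatin protein of pluripotent cells, rose from 454 and 419.8 to 2757 and 2567 (2.61 ± 0.07, adjusted p = 1e-09). Dppa2 rose from 795 and 809 to 4069 and 3986 (2.33 ± 0.12, adjusted p = 1.27e-07), and its partner Dppa4 from 2041 and 2129 to 4923 and 5019.8 (1.25 ± 0.10, adjusted p = 2.7e-06). Foxd3, a forkhead factor, rose by 1.34 and L1td1, an RNA-binding protein, by 1.07. The RNA-binding protein Lin28a stood at 0.99 ± 0.08, just under the size threshold.

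Postimplantation epiblast genes had the largest share of called members among the 40 lists, which were chosen with earlier results of these data known. Of 22 tested, 18 were called higher, 1 (the activin inhibitor Fst) lower, and the median was 2.16. Fgf5, Pou3f1, Dnmt3a, Car4 and Pim2 are given above. Sox3, a SoxB1 factor, rose from 18.5 and 21.5 to 261 and 235, at least 8.81-fold (3.63 ± 0.13, adjusted p = 1.31e-08). Otx2, a homeobox factor that drives the exit from naive pluripotency, read 813 and 866 in ESCs and 2058 and 2177 in day 1 EpiLCs (1.33 ± 0.40, adjusted p = 0.0215). Its arrays did not overlap, as for every called gene. A fit without any single array of the 4 gave no call (differences from 1.29 to 1.38), while the fit of the 4 arrays alone kept it. The SE is taken over all 12 unamplified arrays. Sox4 rose by 2.86, the ETS factor Etv4 by 2.87, the tight junction protein Cldn6 by 2.51, the zinc finger factors Zic5 by 1.82 and Zic2 by 1.75, Sall2 by 1.56 and Sox11 by 1.15. Wnt8a and Lin28b were called with both means under the filter level, and the call for Lin28b did not hold without either ESC array or without day 1 replicate 2. Grhl2, a factor of the epithelial program, stood at 0.06 ± 0.21. Cdh2, the N-cadherin gene (0.97 ± 0.16, adjusted p = 0.000703), and Tead2 (0.49 ± 0.10, adjusted p = 0.00184) were not called.

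**Figure D3:**
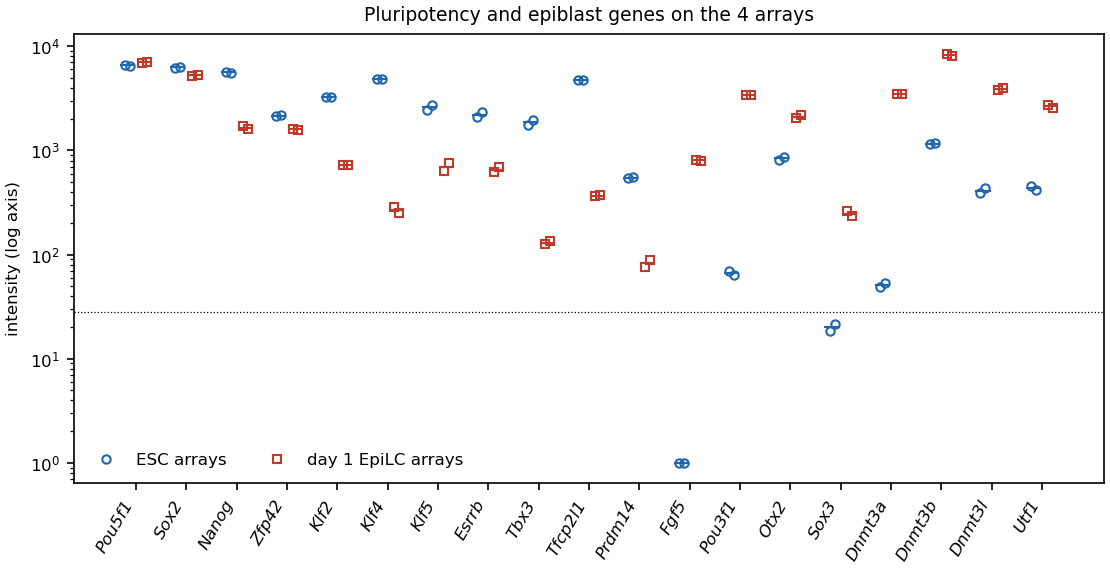
Intensity (log axis) on each of the 2 ESC arrays (blue circles) and the 2 day 1 EpiLC arrays (red squares) for 19 pluripotency and epiblast genes, with short lines at the geometric means and a dotted line at the filter level of 28.1. Pou5f1 and Sox2 stay near their ESC level, Klf4, Tbx3 and Tfcp2l1 drop more than 10-fold, and Fgf5 starts at 1 on both ESC arrays.

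Target and feedback genes of ERK rose in 9 of 17 cases and fell in 0, with a median of 1.02. Dusp6, the phosphatase that switches ERK off, read 116 and 135 in ESCs and 1485 and 1659 in day 1 EpiLCs (3.65 ± 0.08, adjusted p = 2.27e-10). Dusp4, a related phosphatase of the nucleus, went from 14.5 and 7.63 to 197 and 176, at least 6.63-fold (4.15 ± 0.23, adjusted p = 2.4e-07). Spry4, a feedback inhibitor below FGF receptors, read 78.1 and 74.8 in ESCs and 511 and 485 in day 1 EpiLCs (2.70 ± 0.25, adjusted p = 8.06e-06). Each of these rose with no overlap between the arrays, which holds for every called gene. The growth regulator Myc read 75.5 and 73 in ESCs and 625 and 713 in day 1 EpiLCs (3.17 ± 0.29, adjusted p = 7.8e-06). Etv4, Phlda1 (2.28), the EGF receptor inhibitor Errfi1 (1.34) and Spry1 (1.02) rose as well, and Dusp5 rose at least 1.73-fold from background. Spred1 (0.93 ± 0.07, adjusted p = 1.28e-06), Etv5 (0.85 ± 0.09, adjusted p = 2.43e-05) and Spred2 (0.78 ± 0.08, adjusted p = 1.54e-05) were higher on both day 1 arrays than on both ESC arrays but under the size threshold, and Spry2 (0.19 ± 0.07, adjusted p = 0.0526), Ccnd1 (-0.07 ± 0.18, adjusted p = 0.803) and Il17rd (-0.14 ± 0.07, adjusted p = 0.154) were not called.

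Called immediate early genes, which growth factors switch on within minutes, were mostly lower. Of 16 tested, 1 was called higher and 4 lower, with a median of -0.40. Fos, an AP-1 subunit, read 86.4 and 94 in ESCs and 22.6 and 29.7 in day 1 EpiLCs, at least 3.21-fold lower (-1.80 ± 0.27, adjusted p = 0.000326). Atf3 read 76.3 and 85.2 in ESCs and 25.5 and 23.4 in day 1 EpiLCs, at least 2.87-fold lower (-1.72 ± 0.15, adjusted p = 5.14e-06), and Btg2 (-1.32) and the orphan receptor Nr4a1 (-1.06) were also lower. Egr1, a classical ERK target, was not called (-0.47 ± 0.12, adjusted p = 0.00885), nor was Junb (-0.98 ± 0.18, adjusted p = 0.0012). The higher gene was Ier5, with 47.8 and 50.8 in ESCs and 184 and 186 in day 1 EpiLCs (1.91 ± 0.09, adjusted p = 9.23e-08). Of 11 FGF ligands and receptors tested, 3 were called, all higher: Fgf5, the ligand Fgf15 from 16.9 and 9.48 to 153 and 161 (at least 5.6-fold), and the receptor Fgfr2 from 40.6 and 40.9 to 101 and 101 (1.31 ± 0.13, adjusted p = 1.78e-05). The receptor Fgfr1 was not called (0.06 ± 0.16, adjusted p = 0.805).

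Called genes of the LIF pathway were all lower. Of 11 tested, 5 were called lower and 0 higher, with a median of -0.67. After Socs3 came Bcl3, an atypical inhibitor of NF-kappaB that is a STAT3 target, with 253 and 268 in ESCs and 48 and 47.5 in day 1 EpiLCs (-2.45 ± 0.35, adjusted p = 0.000215). Stat3 itself, the transcription factor of the pathway, read 562 and 563 in ESCs and 175 and 179 in day 1 EpiLCs (-1.67 ± 0.12, adjusted p = 1.34e-06). Il6st, the shared receptor chain gp130, read 593 and 625 in ESCs and 262 and 249 in day 1 EpiLCs (-1.25 ± 0.10, adjusted p = 2.29e-06). The kinase Jak2 was lower too (-1.16 ± 0.16, adjusted p = 0.000196), so that receptor, kinase, transcription factor and feedback inhibitor were each lower. The LIF receptor Lifr (-0.60 ± 0.08, adjusted p = 0.000208), Pim3 (-0.67 ± 0.07, adjusted p = 3.38e-05), Jak1 (-0.05 ± 0.10, adjusted p = 0.723), Socs2 (0.17 ± 0.07, adjusted p = 0.0857) and Pim1 (0.30 ± 0.06, adjusted p = 0.0032) were not called.

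The STAT3 site has the letters TTCNNNGAA, which read the same on both strands. In the 250 bases before a RefSeq start, taken for 11903 of the 14934 genes tested, 854 genes (7.17%) had at least 1 match. The share was 5.45% among the genes called higher and 7.19% among those called lower. Of the 5 called LIF pathway genes with a window, 1 had a match, Socs3, and none of the 5 members that were not called did. The window of Socs3, the gene with the largest measured fall, is shown 5′ to 3′ with the match in capitals, 146 to 154 bases before the start (RefSeq, GRCm38.p6, chr11:117969367-117969616, minus strand):
Socs3: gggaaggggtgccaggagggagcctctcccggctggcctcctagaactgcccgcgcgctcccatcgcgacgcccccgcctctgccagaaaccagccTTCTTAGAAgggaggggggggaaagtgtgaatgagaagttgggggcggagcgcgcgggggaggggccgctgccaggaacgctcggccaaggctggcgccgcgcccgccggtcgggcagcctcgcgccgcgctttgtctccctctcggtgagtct
Among the naive genes called lower, Esrrb also had a match. A match is a description of the letters and says nothing of binding in these cells.

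Called WNT target and feedback genes were also all lower. Of 13 tested, 5 were called lower and 0 higher, with a median of -0.63. Sp5, a direct target of beta-catenin, read 282 and 292 in ESCs and was at 1 on both day 1 arrays, at least 10.2-fold lower (adjusted p = 4.1e-08). Cdx1, a caudal homeobox target, read 92.2 and 93.2 in ESCs and 14.6 and 17.8 in day 1 EpiLCs, at least 3.3-fold lower (-2.52 ± 0.33, adjusted p = 0.000108). Axin2, the feedback scaffold of the beta-catenin destruction complex, read 369.8 and 331 in ESCs and 75.7 and 86.6 in day 1 EpiLCs (-2.11 ± 0.15, adjusted p = 1.55e-06), and the mean of its probe sets was -0.94. The ubiquitin ligase Rnf43 went from 31.2 and 32.6, close to the filter level, to 10.3 and 5.43, at least 1.13-fold lower (adjusted p = 0.00237). The secreted WNT inhibitor Notum read 541 and 489 in ESCs and 259 and 226 in day 1 EpiLCs (-1.09 ± 0.16, adjusted p = 0.000315), a call that ended without day 1 replicate 2 (-0.99). The nuclear factor Lef1 lay on the other side of 0 and was not called (0.73 ± 0.09, adjusted p = 6.38e-05), and the ligase Znrf3 was not called (-0.53 ± 0.11, adjusted p = 0.00213).

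The core of TCF/LEF sites, CTTTGAT, was present on either strand in the same windows of 364 of 11903 genes (3.06%). Its share was 2.96% among genes called higher and 3.53% among genes called lower. Of the 3 called WNT targets with a window, 1 had it, and none of the 6 that were not called did. That gene was Sp5, whose window is shown 5′ to 3′ with the match in capitals, 98 to 104 bases before the start (RefSeq, GRCm38.p6, chr2:70474673-70474922, plus strand):
Sp5: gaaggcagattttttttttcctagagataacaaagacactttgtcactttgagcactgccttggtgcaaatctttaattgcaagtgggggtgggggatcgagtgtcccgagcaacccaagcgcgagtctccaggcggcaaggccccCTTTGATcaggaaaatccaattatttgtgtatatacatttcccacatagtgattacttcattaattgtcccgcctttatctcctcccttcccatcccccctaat
Of other motifs searched on both strands, the octamer ATTTGCAT of POU factors was in the windows of 2.96% of genes called higher, 1.31% of those called lower and 1.49% of all. The ETS site ACCGGAAGT was in 0.467%, 0.523% and 1.504%, and the palindromic E-box CACGTG in 9.50%, 9.80% and 9.28%. The AP-1 site TGACTCA was in 4.52%, 5.75% and 4.15%, and the Esrrb site TCAAGGTCA in 0%, 0.523% and 0.336% (0 of 642, 4 of 765 and 40 of 11903 genes). None of these letter patterns contains another.

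Genes for WNT ligands, receptors and nuclear factors changed in both directions: 5 of 27 were called higher and 4 lower (median 0.09). Sfrp1, a secreted WNT antagonist, read 3341 and 3474 in ESCs and 677 and 699 in day 1 EpiLCs (-2.31 ± 0.10, adjusted p = 3e-08). The Frizzled receptor Fzd5 read 1250.0 and 1239 in ESCs and 389 and 387 in day 1 EpiLCs (-1.68 ± 0.06, adjusted p = 1.71e-08). Fzd2 went the other way, with 57 and 49.4 in ESCs and 295 and 273 in day 1 EpiLCs (2.42 ± 0.11, adjusted p = 5.04e-08). Of other Frizzled genes, Fzd10 was lower (-2.08), and Fzd3 and Fzd8 were higher from below the filter level, by at least 1.35-fold and 1.16-fold. Wnt5b was lower (-1.65) and the antagonist Sfrp2 at least 2.52-fold higher. Ctnnb1, the beta-catenin gene, stood at -0.15 ± 0.05, and Tcf7l1, the repressor that beta-catenin relieves in ESCs, at 0.69 ± 0.16; neither was called.

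**Figure D4:**
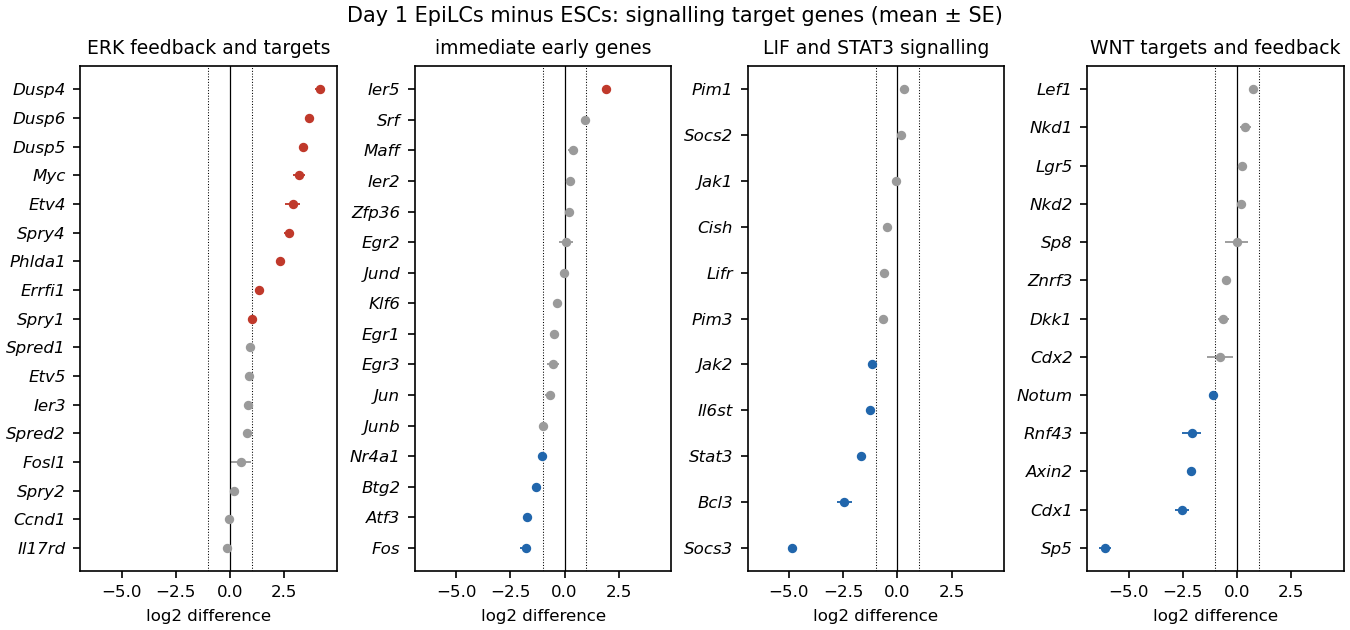
Log2 difference, day 1 EpiLCs minus ESCs (n = 2 arrays per group), for every tested member of 4 lists of signalling genes. Bars are the standard error from the fit of all 12 unamplified arrays. Red and blue mark genes called higher and lower, grey those not called, and dotted lines mark a difference of 1 in either direction. ERK targets lie mostly on the right with 9 of 17 called, and immediate early genes on both sides of 0. LIF pathway genes and WNT targets lie mostly on the left with 5 of 11 and 5 of 13 called.

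Nodal pathway genes split between its inhibitors. Of 19 tested, 2 were called higher and 5 lower, with a median of -0.06. Lefty1, a secreted Nodal inhibitor, rose from 184 and 166 to 796 and 783 (2.18 ± 0.07, adjusted p = 6.08e-09). Its close relative Lefty2 fell from 1029 and 970.0 to 397 and 384 (-1.36 ± 0.11, adjusted p = 2.45e-06). The activin-binding protein Fst fell from 1427 and 1349 to 265 and 269 (-2.38 ± 0.27, adjusted p = 4.63e-05). The pair of Lefty genes thus moved in opposite directions, with no overlap in either, as for every called gene. The receptor Acvr1b (-1.88) and the Nodal-processing proteases Pcsk6 (-1.83) and Furin (-1.16) were lower, and the SMAD corepressor Skil was higher, with 518 and 494 in ESCs and 2175 and 2157 in day 1 EpiLCs (2.10 ± 0.10, adjusted p = 5.54e-08). Nodal itself was not called (-0.52 ± 0.07, adjusted p = 9.31e-05), nor were its coreceptor Tdgf1 (-0.06 ± 0.20, adjusted p = 0.855) and the nuclear partner Foxh1 (0.99 ± 0.14, adjusted p = 0.000256).

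Of 19 BMP pathway genes, 2 were called higher and 4 lower (median -0.10), and the Id genes, which BMP signals induce in ESCs, did not move alike. Id4 fell from 749.7 and 799 to 79.2 and 77.9 (-3.30 ± 0.14, adjusted p = 3.95e-08). Id2 rose from 164 and 152 to 357 and 337 (1.14 ± 0.27, adjusted p = 0.00546), though the mean of its probe sets was 0.79. Id1 (0.73 ± 0.14, adjusted p = 0.00206) and Id3 (0.02 ± 0.15, adjusted p = 0.929) were not called. Gata2 fell at least 5.92-fold, from 161 and 172 to 23 and 13.1. Bmp2 was called with both means under the filter level and lost the call without ESC replicate 2 or day 1 replicate 1. The other ligand genes were weak: Bmp4 read 22 and 22.5 in ESCs and 46 and 62 in day 1 EpiLCs and Bmp7 54.1 and 75.7 in ESCs and 28.9 and 30.7 in day 1 EpiLCs, and neither call held in every fit that left out 1 array. Bmp4 lost it without ESC replicate 1, ESC replicate 2 or day 1 replicate 2, and Bmp7 (-0.86) without ESC replicate 2.

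In the Notch pathway, 2 of 14 genes were called higher and 2 lower (median -0.55). The ligand Dll1 rose from 61.5 and 58.4 to 332 and 319.7 (2.44 ± 0.23, adjusted p = 1.12e-05) and Dll3 from 57.2 and 63.2 to 150.3 and 149.8 (1.32 ± 0.10, adjusted p = 2.79e-06). The ligand Jag1 fell from 230.2 and 266 to 90.3 and 80.2 (-1.54 ± 0.18, adjusted p = 4.85e-05), and the target Hes1 from 911 and 797 to 169 and 149 (-2.42 ± 0.17, adjusted p = 1.31e-06). Ligands thus changed in both directions. In the Hippo list, 1 of 15 was called higher and 2 lower (20% called, against 12% of all genes tested, median 0.00). They were the adaptor Ajuba (1.10), the coactivator Wwtr1, or TAZ (-1.15), and its DNA-binding partner Tead1 (-1.18, or -0.66 as the mean of its probe sets). The YAP target Ccn1 (0.98 ± 0.22, adjusted p = 0.00404) and its relative Ccn2 (0.91 ± 0.08, adjusted p = 4.95e-06) stood just under the size threshold. In the retinoic acid list, 2 of 13 were called (15.4%, against 12% of all genes tested), both higher. They were the receptor Rarg and the carrier Crabp2, which went from 11.1 and 9.77 to 184 and 206, at least 6.92-fold.

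De novo DNA methyltransferases were called higher. Dnmt3b rose from 1158 and 1166 to 8401 and 8069 (2.82 ± 0.26, adjusted p = 8.68e-06), one of the brightest signals among the genes called. Dnmt3l, their cofactor without catalytic activity, rose from 386 and 432 to 3844 and 3954 (3.26 ± 0.65, adjusted p = 0.00217). With Dnmt3a, all 3 genes of this family on the list were higher on both day 1 arrays. The maintenance enzyme Dnmt1 (-0.12 ± 0.06, adjusted p = 0.153), its partner Uhrf1 (-0.27 ± 0.11, adjusted p = 0.0797) and the dioxygenase Tet1 (0.02 ± 0.14, adjusted p = 0.92) were not called. Of 13 genes for DNA methylation and demethylation, 3 were called higher and 1 lower (median 0.02). The lower one, the deaminase relative Apobec2, went from 347 and 369 to 82.7 and 83.4 (-2.11 ± 0.24, adjusted p = 3.99e-05), with -0.91 as the mean of its probe sets.

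Shares of called genes for histone methylation and chromatin remodelling lay near or under the 12% of all genes tested. In the H3K9 list 1 of 14 was called (7.14%). It was the demethylase Kdm3b (-1.10 ± 0.09, adjusted p = 5e-06), with -0.62 as the mean of its probe sets. The related demethylase Kdm3a stood just under the size threshold (-0.97 ± 0.07, adjusted p = 1.4e-06), and the methyltransferases Ehmt1 (0.68 ± 0.09) and Ehmt2 (0.82 ± 0.10) were above 0 and not called. In the Polycomb list 0 of 19 were called by limma, and 9 had an unadjusted p under 0.05, against 46.9% of all genes tested. The list ran from -0.47 to 0.69. Its extremes were Pcgf2 and Jarid2, the latter with 1436 and 1335 in ESCs and 2146 and 2322 in day 1 EpiLCs. Ezh2, the H3K27 methyltransferase, was not called (0.03 ± 0.06, adjusted p = 0.725). Of 20 chromatin remodelling genes, 2 were lower (10%) and 0 higher. Smarcd3, the BAF60C subunit of BAF complexes, read 388 and 394 in ESCs and 25.7 and 22.1 in day 1 EpiLCs, at least 13.9-fold lower (-4.04 ± 0.22, adjusted p = 1.75e-07). The ATPase Smarca2 went from 249 and 225 to 111 and 89.2 (-1.25; -0.80 as the mean of its probe sets), and its paralogue Smarca4 was not called (0.07 ± 0.07, adjusted p = 0.482).

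Imprinted genes, which are read from one parental copy, gave 7 of 21 higher and 1 lower (median 0.39). Plagl1, an imprinted zinc finger factor, fell from 4303 and 4277 to 234 and 225 (-4.22 ± 0.13, adjusted p = 2.5e-09). Mest rose from 277 and 256 to 1573 and 1633 (2.59 ± 0.06, adjusted p = 3.1e-10) and Peg3 from 857 and 827 to 2911 and 3022 (1.82 ± 0.07, adjusted p = 1.13e-08). The direction thus differed between imprinted zinc finger genes. Cdkn1c, which encodes the cyclin-dependent kinase inhibitor p57, rose by 2.45, Nnat by 2.46 and Snrpn by 2.25. Magel2 and Peg10 were called at weak levels: Magel2 lost its call without ESC replicate 1, and Peg10 without ESC replicate 1 or either day 1 array. Meg3 (-0.45 ± 0.09, adjusted p = 0.00265), Igf2r (-0.61 ± 0.12, adjusted p = 0.00163) and Igf2 (0.04 ± 0.28, adjusted p = 0.931) were not called.

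Called genes with roles in early germ cells were mostly lower, and those of later germ cells mostly higher. Of 15 early germ cell genes, 7 were called lower and 2 higher (median -0.64). Tfap2c, an AP-2 factor needed for germ cell specification, read 1439 and 1287 in ESCs and 92.5 and 77.7 in day 1 EpiLCs (-4.00 ± 0.11, adjusted p = 1.93e-09). Prdm1, the germ cell specifier also called Blimp1, went from 183 and 172 to 64.5 and 65.1 (-1.45 ± 0.16, adjusted p = 3.38e-05). Prdm14 went from 538 and 561 to 76 and 88.8 (-2.74 ± 0.24, adjusted p = 5.37e-06). All 3 specifiers were thus lower than in ESCs on day 1. The receptor kinase Kit fell from 1048 and 1045 to 86.3 and 93.9 (-3.54 ± 0.13, adjusted p = 1.35e-08) and the ETS factor Elf3 from 1113 and 1054 to 106 and 98.1 (-3.41 ± 0.11, adjusted p = 6.39e-09). The membrane protein Ifitm1 fell by 1.67, while its relative Ifitm3 was not called (-0.41 ± 0.05, adjusted p = 0.000118). The homeobox gene Rhox5 rose from 898 and 834 to 3419 and 3378 (1.97 ± 0.05, adjusted p = 1.51e-09), and the RNA-binding protein Dnd1 by 1.31.

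Of 22 genes of later germ cells, meiosis and transposon silencing, 10 were called higher and 1 lower (median 0.83). Mael, a piRNA pathway protein, rose from 33.6 and 44.2 to 389 and 409 (3.37 ± 0.13, adjusted p = 1.71e-08). Slc25a31, the germ cell form of the mitochondrial ADP/ATP carrier, rose from 20.9 and 12.9 to 143 and 133, at least 4.91-fold. Hormad1, a protein of meiotic chromosome axes, rose from 419 and 421 to 1048 and 1018 (1.30 ± 0.18, adjusted p = 0.000198). The ESC level was low for Mael and Slc25a31 but not for Hormad1. Sycp1, of the synaptonemal complex, rose at least 2.84-fold, and the helicase Ddx4 rose by 1.23, Stk31 by 1.20 and Tex101 by 1.16. Tdrd5 reached a level just above the filter (29.8 and 43.3), and Smc1b and Mov10l1 stayed under it; Mov10l1 lost its call without ESC replicate 2 or without day 1 replicate 2. The cohesin subunit Rec8 fell from 138 and 161 to 23.9 and 32.2, at least 5.31-fold. Dazl (0.15 ± 0.16, adjusted p = 0.534) and Sycp3 (-0.58 ± 0.11, adjusted p = 0.00195) were not called. Of 3 genes tested from the 2-cell-like list, 0 were called by limma and 1 had an unadjusted p under 0.05, against 46.9% of all genes tested.

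Genes of the primitive streak had calls in both directions, and early neural genes had 1. Of 14 primitive streak genes 1 was higher and 3 lower (28.6% called, against 12% of all genes tested), with a median of 0.00. Of 11 early neural genes 1 was lower and 0 higher (9.09% called, under the 12% of all genes), with a median of -0.25. Gsc, an organiser homeobox gene, went from 63.1 and 59.96 to 3.47 and 2.08, at least 2.19-fold lower (-3.87 ± 0.29, adjusted p = 2.15e-06). Eomes, a T-box factor of streak and trophoblast, read 313 and 273 in ESCs and 127 and 132 in day 1 EpiLCs (-1.17 ± 0.37, adjusted p = 0.0286). It had no call in any fit that dropped a single array (-1.27 to -1.07), but kept its call in the fit of the 4 arrays alone. Snai2 rose from 37.4 and 30.2 to 65.4 and 89.4 (1.19 ± 0.22, adjusted p = 0.00118), a call that ended without day 1 replicate 2 (0.96), and Tbx6 was called with both means under the filter level and lost the call without ESC replicate 1. Hesx1, a homeobox gene of the anterior epiblast and brain, read 335 and 393 in ESCs and 50.8 and 55.3 in day 1 EpiLCs (-2.78 ± 0.44, adjusted p = 0.000434). The neural genes Sox1 (-0.13 ± 0.19, adjusted p = 0.654) and Pax6 (-0.72 ± 0.27, adjusted p = 0.0512) were not called.

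Markers of cell types were summed to check the labels and the purity of the samples. The 8 ESC markers summed to 34152 and 34492 in ESCs and 16877 and 17024 in day 1 EpiLCs, and the 7 EpiLC markers to 14894 and 15017 against 27142 and 27045. Pou5f1 and Sox2 are on both lists. Without them, the ESC markers summed to 21318 and 21592 against 4707 and 4623, and the EpiLC markers to 2060.04 and 2117 against 14972 and 14645. The 13 fibroblast or feeder markers on the array summed to 1515 and 1517 in ESCs and 1899 and 1952 in day 1 EpiLCs, with 3 and 4 of them above the filter level. Acta2 made up most of that sum, and Lum, Postn and Col3a1 were at or near background on all 4 arrays. Col1a1 lay above the filter level on all 4, with 64.2 and 63.3 in ESCs and 69.4 and 58 in day 1 EpiLCs. Of the 13, 3 were called higher and 1 lower: Dcn from 1 on both ESC arrays to 65.3 and 86.9, Tagln, Thy1 with both means under the filter level, and Pdgfrb from 66.6 and 59.8 to 13.2 and 10.6. The 9 mesoderm markers summed to 443 and 362 in ESCs and 1328 and 1407 in day 1 EpiLCs, of which Tcf15 went from 49.2 and 59.1 to 966 and 1045. Endoderm markers summed to 391.6 and 390.7 against 443 and 525, with Apoa1 at 85.1 in day 1 replicate 2 and at 1 elsewhere. Of 13 endoderm markers tested, 2 were called higher and 2 lower. Cubn went from 4.21 and 7.58 to 48.9 and 62.3, and Gata4 from 49.3 and 34.6 to 108 and 81.9, a call that ended without ESC replicate 2 or day 1 replicate 1. Gata4 stood at 0.46 as the mean of its probe sets. Amn and Pdgfra were called lower with both means under the filter level, and Amn lost the call without either ESC array or day 1 replicate 2. Sums of the trophoblast, neural and blood or endothelium lists lay between 305 and 519 on all 4 arrays. Of 7 trophoblast markers tested 1 was called lower (14.3%, against 12% of all genes tested), Krt7 from 72.3 and 72.9 to 19.3 and 16.7. Of 6 blood or endothelium markers 1 was called higher (16.7%), Cd34 from 8.72 and 3.2 to 25.4 and 33.2. Of 5 neural markers 0 were called. In bulk RNA, fewer cells that express a gene and less RNA per cell cannot be told apart.

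Genes of epithelial junctions changed in both directions, with 5 of 17 called higher and 5 lower (median -0.07). Of the desmosome genes, Dsp, the desmosomal plaque protein, went from 149.6 and 148 to 29.3 and 25, at least 5.29-fold lower, and Dsc2 from 92.3 and 90.5 to 13.3 and 9.32, at least 3.25-fold lower. Dsg2 went from 630.2 and 600.5 to 174 and 160.3 (-1.88 ± 0.08, adjusted p = 4.93e-08; -0.98 as the mean of its probe sets). The plaque protein Pkp2 went the other way, from 257 and 257 to 1019 and 1030.3 (2.00 ± 0.11, adjusted p = 2.88e-07). The keratin Krt8 fell from 659 and 685 to 177 and 178 (-1.92 ± 0.11, adjusted p = 3.66e-07), while its partner Krt18 was not called (0.42 ± 0.09, adjusted p = 0.00264). Tight junction genes also split, with Cldn6 higher (2.51), Ocln higher (1.27) and Cldn7 lower (-1.15). The adhesion protein Epcam rose from 1222 and 1252 to 3150.4 and 3168 (1.35 ± 0.06, adjusted p = 3.31e-08). The E-cadherin gene Cdh1 was not called (-0.17 ± 0.04, adjusted p = 0.0104).

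Of 20 genes of the actin cytoskeleton and SRF targets, 7 were called higher and 0 lower (median 0.54). Myl9, a myosin light chain, went from 1.26 and 3.3 to 115 and 124, at least 4.24-fold higher (4.83 ± 0.12, adjusted p = 6.13e-10). Tagln went from 9.45 and 19 to 86.4 and 66.9, at least 2.71-fold higher. Anxa2 (1.80) and the tropomyosins Tpm2 (1.31) and Tpm1 (1.08; 0.39 as the mean of its probe sets) rose. Fhl2 was called with both means under the filter level, and S100a6 is given above. Tagln is also on the fibroblast list, whose sums stand above; the part of other cells in these values was not tested. Vim (-0.76 ± 0.06, adjusted p = 2.76e-06) and Actn1 (-0.76 ± 0.06, adjusted p = 3.2e-06) were lower on both day 1 arrays but under the size threshold, and Actb was not called either (0.07 ± 0.08, adjusted p = 0.558).

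Matrix and guidance genes had calls in both directions. Of 21 integrins and laminins, 2 were higher and 4 lower (median -0.17). The laminin chains Lama1, with 393 and 404 in ESCs and 30.3 and 37.3 in day 1 EpiLCs (-3.57 ± 0.22, adjusted p = 4.04e-07), and Lamc1, with 1966 and 1979 in ESCs and 869 and 876 in day 1 EpiLCs (-1.18 ± 0.09, adjusted p = 1.85e-06), both fell, and Lamb2 fell at least 3.76-fold. The integrin chain Itga3 rose from 57.9 and 54 to 412 and 381 (2.83 ± 0.14, adjusted p = 9.53e-08), Itga1 rose at least 2.3-fold, and Itgb4 fell by 1.16. Of 26 guidance cues, ephrins and their receptors, 9 were lower and 1 higher, while 13 lay below 0 and the list's median was -0.08. Ntn1, the guidance cue netrin, fell from 1059 and 1167 to 81.2 and 83.1 (-3.76 ± 0.20, adjusted p = 1.67e-07), and its receptor Neo1 from 989 and 985 to 404 and 409 (-1.28 ± 0.10, adjusted p = 2.14e-06). Slit2 fell from 327 and 338 to 16.8 and 12.1, at least 11.8-fold, with another probe set at -0.52, and its receptor Robo1 by 1.38 (-0.72 as the mean of its probe sets). The other netrin receptors of the list, Unc5b (0.42 ± 0.11, adjusted p = 0.013) and Dcc (-0.25 ± 0.18, adjusted p = 0.333), were not called, and Robo2 was not tested. Among ephrins and Eph receptors, Efna3 fell by 2.60, Epha4 by 2.34, Ephb3 by 1.68, Efna4 by 1.47 and Efnb1 by 1.26. Efnb2 alone among the 26 was called higher, from 82.8 and 78.3 to 674 and 672 (3.06 ± 0.08, adjusted p = 1.02e-09).

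Some glycolysis genes rose, and respiratory chain genes gave no calls but lay mostly below 0. Of 23 glycolysis and lactate genes, 6 were called higher and 2 lower (median 0.32). Ldha, the lactate dehydrogenase subunit that makes lactate, read 3094 and 3062 in ESCs and 6709 and 6822 in day 1 EpiLCs (1.14 ± 0.16, adjusted p = 0.000223). The lactate exporter Slc16a3 is given above. The other lactate dehydrogenase subunit of the list, Ldhb (-0.69 ± 0.08, adjusted p = 6.35e-05), and the lactate transporter Slc16a1 (0.46 ± 0.11, adjusted p = 0.00805) were not called. Eno3 rose by 1.83, Pfkl by 1.41 (0.98 as the mean of its probe sets) and Pfkfb3 at least 1.64-fold, from 8.34 and 20.1 to 41.3 and 51.2 (0.80 as the mean of its probe sets). Pdk1, the kinase that restrains pyruvate dehydrogenase, rose from 785 and 691 to 1752 and 1412 (1.09 ± 0.16, adjusted p = 0.000279), a call that ended without day 1 replicate 1 (0.94). The mean of the probe sets of Pdk1 was 0.76. Hexokinase Hk1 fell from 1451 and 1428 to 359 and 377 (-1.97 ± 0.11, adjusted p = 2.71e-07), and the glucose transporter Slc2a3 from 9674 and 9842 to 3777 and 3989.5 (-1.33 ± 0.06, adjusted p = 4.69e-08). The other glucose transporter, Slc2a1, was not called (0.43 ± 0.13, adjusted p = 0.0226).

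Of 25 respiratory chain genes 0 were called by limma, but the median was -0.33 against -0.03 for all genes. Of the 25, 23 lay below 0, against 53.4% of all genes tested, and 20 had an unadjusted p under 0.05, against 46.9%. The list ran from -0.81 for Cox7a1 to 0.08 for Cycs, the cytochrome c gene. Sdhb, a subunit of succinate dehydrogenase, read 2613 and 2567 in ESCs and 1591 and 1627 in day 1 EpiLCs (-0.69 ± 0.08, adjusted p = 6.84e-05). The groups did not overlap for it, as for 72.2% of all genes tested, and the step stayed under the size threshold. In the fatty acid list, Cpt1a, which brings fatty acids into mitochondria, fell from 983 and 1043 to 165 and 161 (-2.64 ± 0.13, adjusted p = 1.08e-07). Acsl4 rose by 1.70, and these were the only calls among 19 genes (10.5%, against 12% of all genes tested). Of 18 cholesterol genes 1 was called (5.56%, against 12% of all genes tested). It was Hsd17b7 (1.01, or 0.83 as the mean of its probe sets), which lost its call without ESC replicate 2 (0.99) or day 1 replicate 1 (0.91). Of 13 hypoxia response genes, 3 were higher and 0 lower: Bnip3 from 89.8 and 98.4 to 757 and 815 (3.06 ± 0.17, adjusted p = 1.96e-07), Egln3 by 1.92 and Ankrd37 at least 2.16-fold. Vegfa (-0.03 ± 0.16, adjusted p = 0.916) and Hif1a (0.00 ± 0.06, adjusted p = 0.984) were not called, and the list's median was 0.00.

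Of 22 targets of Atf4 and amino acid stress, 3 were higher and 4 lower (median -0.25). Asns, the asparagine synthetase gene, fell from 9095 and 9101 to 2688 and 2878 (-1.71 ± 0.05, adjusted p = 2.5e-09). Nupr1 fell from 1889.7 and 2056 to 503 and 566 (-1.89 ± 0.31, adjusted p = 0.000555), and Ddit3, the stress factor CHOP, from 344 and 336 to 96.8 and 122 (-1.65 ± 0.16, adjusted p = 1.51e-05). The 3 higher genes were amino acid transporters. Slc38a2 rose from 1865 and 1827 to 5830.5 and 5453 (1.61 ± 0.05, adjusted p = 4.76e-09) and Slc7a3 from 1357 and 1295 to 3961 and 3909 (1.57 ± 0.31, adjusted p = 0.00183). Slc7a11 was called near the filter level and kept the call in the fit of the 4 arrays alone, but lost it without any 1 of them. The other transporters of the list, Slc7a5 (0.08 ± 0.09, adjusted p = 0.498) and Slc3a2 (-0.04 ± 0.07, adjusted p = 0.739), were not called. Aldh18a1 stood at the size threshold (-1.003, or -0.85 as the mean of its probe sets) and lost its call without ESC replicate 2 or day 1 replicate 1 (-0.97). Atf4 itself was not called (-0.30 ± 0.06, adjusted p = 0.0023). Of 7 threonine, glycine and folate genes 0 were called by limma and 3 had an unadjusted p under 0.05, against 46.9% of all genes tested (median 0.06).

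Inhibitors and cyclins of the cell cycle moved in opposite directions in several cases. Of 22 regulators, 4 were called higher and 3 lower (median 0.04). Cdkn1a, the p21 gene, fell from 2597 and 2405 to 503 and 514 (-2.30 ± 0.16, adjusted p = 1.31e-06), and Cdkn1b, the p27 gene, from 767 and 715 to 324 and 293 (-1.26 ± 0.07, adjusted p = 2.59e-07; -0.74 as the mean of its probe sets). Ccne1, cyclin E1, rose from 432 and 454 to 1884 and 2077 (2.16 ± 0.08, adjusted p = 1.67e-08). Ccnd2, cyclin D2, rose from 48.4 and 60.5 to 217 and 209.9 (1.98 ± 0.27, adjusted p = 0.000165). The inhibitor Cdkn1c went against this direction, from 58.5 and 49.98 to 314 and 277 (2.45 ± 0.27, adjusted p = 2.99e-05). Cdk6 was lower (-1.10, or -0.71 as the mean of its probe sets) and lost its call without any 1 of the 4 arrays, though not in the fit of these 4 alone. Mycn, at the size threshold (1.01, or 0.58 as the mean of its probe sets), lost its call without ESC replicate 1 (0.99) or day 1 replicate 2 (0.98). Cdk1 (0.19 ± 0.06, adjusted p = 0.0291) and Ccna2 (0.08 ± 0.06, adjusted p = 0.293) were not called.

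Among 12 p53 targets, Cdkn1a was the lower call and Gadd45a the higher one (16.7% called, against 12% of all genes tested). Gadd45a read 380.3 and 397 in ESCs and 1622 and 1629.8 in day 1 EpiLCs (2.06 ± 0.07, adjusted p = 8.12e-09). Mdm2 was not called (0.00 ± 0.08, adjusted p = 0.977). Of 15 apoptosis regulators 0 were called by limma and 9 had an unadjusted p under 0.05, against 46.9% of all genes tested. The list ran from -0.75 for the initiator caspase Casp9 to 0.88 for the BH3-only gene Pmaip1. The nucleolar and MYC-regulated growth genes had a median of 0.31, with 1 of 20 called (5%, against 12% of all genes tested). It was the spermidine synthase Srm, which went from 2009 and 2017 to 4028 and 4141 (1.02 ± 0.06, adjusted p = 1.94e-07). Odc1, the first enzyme of polyamine synthesis, stood at 0.67 ± 0.05. In the antigen presentation and interferon list, 2 of 15 were higher and 2 lower (median 0.01). B2m, the light chain of class I molecules, fell from 1105 and 1197 to 255 and 266 (-2.14 ± 0.16, adjusted p = 1.54e-06), and the heavy chain gene H2-K1 rose from 100.5 and 105 to 236 and 240.0 (1.21 ± 0.20, adjusted p = 0.000555; 0.76 as the mean of its probe sets). The chains of one complex thus went in opposite directions. The peptide transporter Tap1 was called with both means under the filter level, and lost its call without ESC replicate 1 or day 1 replicate 1.

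The later days of the same induction place the day 1 levels in a course. These values share the day 1 arrays with the comparison above, so they are given side by side and are no independent support, and the genes shown were chosen after their values were seen. Some genes had their highest level on day 1. S100a6 had a geometric mean of 184 in ESCs and 3802, 589 and 196 on days 1, 2 and 3. Dnmt3l had 408 in ESCs and 3898, 1169.8 and 995 on days 1, 2 and 3. Dppa2 had 802 in ESCs and 4027, 1769 and 810.1 on days 1, 2 and 3. Each of these 3 stood lower on days 2 and 3 than on day 1, with day 2 minus day 1 differences of -2.69 ± 0.15, -1.74 ± 0.65 and -1.19 ± 0.12. The difference of Dnmt3l did not pass in limma (adjusted p = 0.0658). Phlda1 had the same shape on day 2 (107 in ESCs and 521, 145 and 291 on days 1, 2 and 3). Others were near their day 2 level already on day 1. Fgf5 had 4.2 in ESCs and 802, 878 and 358 on days 1, 2 and 3 and Pou3f1 66 in ESCs and 3406, 3773 and 1523 on days 1, 2 and 3, and the day 2 minus day 1 differences were 0.13 ± 0.15 for Fgf5, 0.15 ± 0.09 for Pou3f1, -0.21 ± 0.13 for Dnmt3a and -0.03 ± 0.07 for Utf1. Car4 and Dusp6 were still on the way, with 4.3 in ESCs and 548, 2515 and 3442 on days 1, 2 and 3 for Car4 and 125 in ESCs and 1569, 2409 and 3797 on days 1, 2 and 3 for Dusp6 (2.20 ± 0.23 and 0.62 ± 0.08 from day 1 to 2).

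Some naive genes that had fallen on day 1 stood lower again on day 2. Klf4 had 4869 in ESCs and 268, 68.6 and 96.7 on days 1, 2 and 3, and Nr5a2 1452 in ESCs and 169.9, 17.5 and 9.86 on days 1, 2 and 3, with day 2 minus day 1 differences of -1.97 ± 0.24 and -3.28 ± 0.26. Jam2 had 3557 in ESCs and 287, 29.7 and 25.3 on days 1, 2 and 3. Nanog also stood lower on day 2, by a smaller step (-0.37 ± 0.10 from day 1 to 2), and higher again on day 3. It had 5621 in ESCs and 1644, 1274 and 1833 on days 1, 2 and 3. A few genes had their lowest level on day 1. Nupr1 had 1971 in ESCs and 534, 1994 and 2823 on days 1, 2 and 3, with a day 2 minus day 1 difference of 1.90 ± 0.31. Cldn7 had 451 in ESCs and 203, 1303 and 2379 on days 1, 2 and 3, and B2m 1150.5 in ESCs and 260.2, 332 and 1271 on days 1, 2 and 3. Krt8 had 672 in ESCs and 177, 253 and 669 on days 1, 2 and 3. These 4 genes were back near or above the ESC level by day 3.

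**Figure D5:**
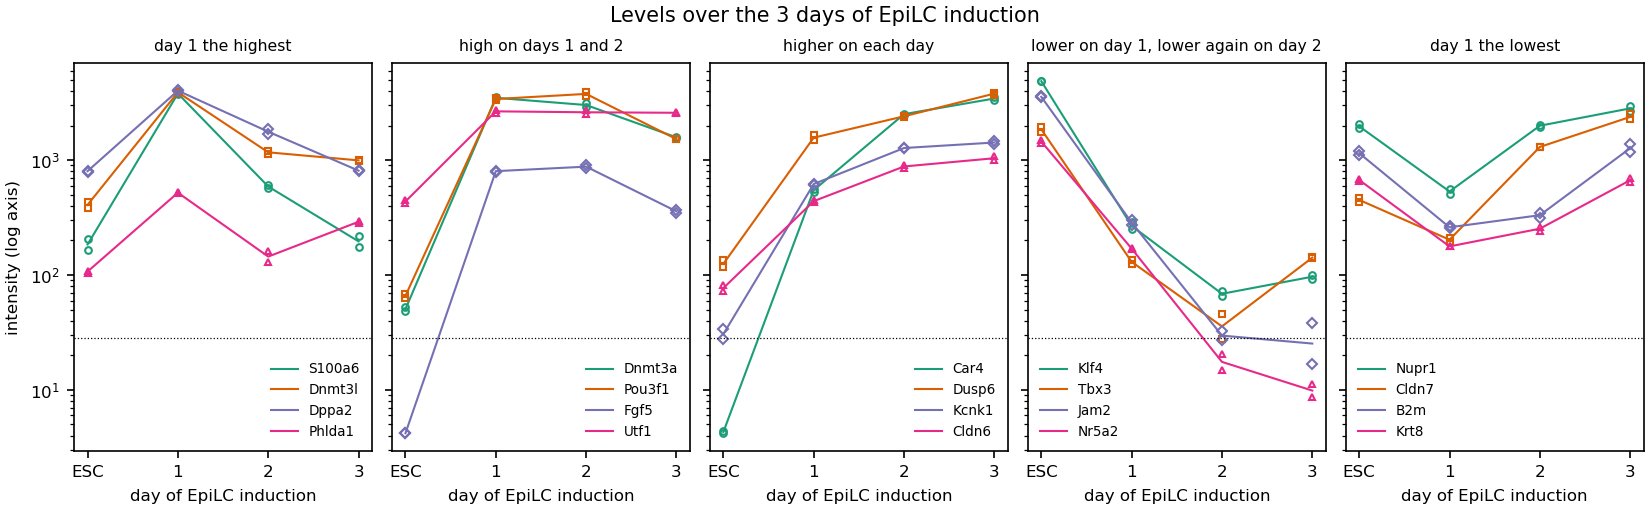
Intensity (log axis) in ESCs and on days 1, 2 and 3 of EpiLC induction for 20 genes in 5 panels, with 1 point per array, lines through the geometric means of 2 arrays and a dotted line at the filter level of 28.1; values under 4.2 were raised to it. S100a6 peaks on day 1 with 3802 and Klf4 drops from 4869 to 268 and then to 68.6, while Nupr1 dips to 534 on day 1.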

How the data were processed

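RNA of mouse cells was measured on Affymetrix arrays, and the 12 unamplified arrays form 6 groups of 2. The deposited values are linear intensities of 45101 probe sets on each array. How the authors normalized these intensities, and with which software, was not given in the sources used here. Precision is limited by the number of arrays.

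The array annotation names 1 gene for 34945 probe sets, 932 had several, 9211 were not listed and 64 were controls. Gene IDs of 34741 probe sets matched RefSeq (GRCm38.p6), 204 did not, and 0 symbols changed. For each of 18193 genes, the probe set brightest on average (log2) over 24 arrays was used. A floor was set at the 10th percentile, 4.2, before log2 was taken. The test covered genes above the 40th percentile of the unamplified arrays, 28.1, on at least 2 of these 12.

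The fit used limma 3.58.1 (R 4.3.3) on the 12 arrays, with group means, moderated variances with an intensity trend, 6 residual degrees of freedom and two-sided p-values adjusted by Benjamini-Hochberg over all genes tested. The method was tested on simulated data, with independent noise and with changes over the size threshold in genes above the filter level. That test cannot speak for calls near the threshold or the floor, or for replicates that are not separate cultures. Residuals of arrays with the same replicate number correlated over 0.1 in 3 of 15 pairs of groups (0.05 for ESCs and day 1 EpiLCs), so the numbers were not used as pairs.

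The comparison, the lists and the genes were chosen with earlier results of these data known. Named were the 20 largest called increases and decreases measured on both sides, the 10 largest in each direction by bound, up to 8 called members of each of the 40 lists and a panel of pluripotency genes. All called genes had arrays apart, while the panel was named whether called or not. Provisional names were passed over in the largest changes. Only some list members that were not called are named, with their values, and the choice among those outside the panel was not fixed beforehand. Sall2, Sox4, Sox11, Zic2, Zic5, Fbxo15, Gbx2, Spry1, Fzd3, Dnd1, Ddx4, Stk31, Tex101, Cldn7, Ocln, Efnb1, Neo1, Dcn, Pdgfrb, Thy1, Cubn, Gata4, Amn, Pdgfra, Krt7 and Cd34 lie outside this rule and were chosen after their values were seen. Motifs were searched in the 250 bases before RefSeq starts, counting a gene once over all its starts.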

Additional observations from a re-analysis of the deposited data

How the results depend on the processing

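The count of called genes stayed within 1.5 times the 1797 reported under every alternative run, and no gene was called in the opposite direction. Raising low values to the 40th percentile gave 1412, log2(value + 16) 1311, the mean of all probe sets of a gene 1584 and a filter at the 60th percentile 1533. Median centring, quantile normalization, no filter, no intensity trend, and fits of the 4 arrays or of the 8 ESC and EpiLC arrays gave between 1766 and 1868. Leaving out 1 array at a time gave 1715 to 1771, where the lone array was assumed to vary like the other groups. A block for the replicate number gave 1812 calls over 12 arrays and 1826 over 8, although the numbers do not pair the samples. Of 210 named genes that were called, 166 kept their call in every setting and 44 lost it in at least 1. Without 1 array, 19 lost it. Calls for Nr4a1, Jak2, Itgb4, Wnt8a, Fzd8, Smc1b, Tdrd5, Fhl2, Dusp5 and Rnf43 were lost only where low values were compressed or arrays were quantile normalized. Tet2 and Lin28a were called in some settings.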
